A study of Mus musculus with 24 samples.

Results

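The matrix metalloproteinases (MMP), the ADAM and ADAMTS metalloproteinases, the ADAMTS-like proteins and the TIMP inhibitors were followed in mouse liver. Members were taken by gene symbol from the table of long RNA counts, and 68 of its 18314 entries qualified. They comprised 19 MMP, 20 ADAM, 19 ADAMTS, 5 ADAMTSL and 4 TIMP genes and 1 antisense RNA, Mmp24os1, which matched by its symbol and encodes no protease. Enough reads for a test were present for 52 members, and the other 16 had between 0 and 68 reads over the 10 libraries used, 2 of them with none.

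RNA came from the liver of male wild-type C57BL/6 mice in 3 groups of 4 libraries each. Control mice ate a normal diet. Mice of the HFD group ate a high-fat diet, a model of metabolic dysfunction-associated fatty liver disease, and mice of the HFD + HQHF group also received the herbal formula HQHF by gavage after 12 weeks of that diet. The study names 9 mice a group and several doses of HQHF, but which dose these libraries belong to, the age of the mice and whether each library came from a separate mouse are not stated in the labels, so p-values measure the spread between libraries.

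The labelled tissue was checked against hepatocyte and fat cell markers before any result. The albumin gene Alb stood between 35050 and 92210 CPM (the count scaled to library size, here by library totals) in 10 libraries. It stood at 46.4 CPM in control 2 and at 0.743 CPM in HFD + HQHF 3, in which the fat cell gene Adipoq reached 4543 and 1254 CPM. Those 2 libraries went against their label and were left out, which left 3 control, 4 HFD and 3 HFD + HQHF libraries of 36198931 to 46454404 counts. Of the libraries kept, HFD 3 had 41.2 CPM of Adipoq by library totals. Control 1 had a summed level of 2307 CPM of 6 pancreatic acinar markers against 4.23 to 20.1 CPM in the others. These sums are scaled by edgeR's TMM factors and not by library totals. Results with all 12 libraries are given beside each comparison.

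MMPs are zinc endopeptidases that cut collagens, elastin, proteoglycans and many non-matrix proteins, and most are secreted as inactive precursors whose prodomain must be removed. ADAMs are membrane proteins that release the outer part of receptors, cytokines and adhesion molecules, a step called shedding. ADAMTS enzymes are secreted and act on procollagens, large proteoglycans and von Willebrand factor, ADAMTS-like proteins resemble their non-catalytic part, and TIMPs bind and block the active sites. In fibrotic liver, stellate cells that turn into myofibroblasts, and macrophages recruited from blood, are known sources of several of these genes.

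Many MMP promoters are textbook targets of AP-1, a transcription factor of FOS and JUN proteins that binds TGANTCA (N is any base). RefSeq promoters were at hand for 42 of the 68 members on build GRCm38.p6, and this palindromic motif, searched on both strands, was in the 250 bases before the transcript start in 6 of the 42 (14.3%: Adam19, Mmp10, Mmp12, Mmp13, Mmp3 and Mmp7) against 7.82% of 27025 genes. The motif AGGAAG of the ETS factor PEA3, searched on both strands, was in 14 of 42 (33.3%) against 32.3% of genes, and neither motif holds the other. The stretches below are the 150 bases before the start, written 5′ to 3′ on the gene's strand with the AP-1 match in capitals, for the leading members and for Mmp3 and Mmp7, which lie in the same row of genes. They are chr9:7272364-7272513 (+) for Mmp13, chr9:7347224-7347373 (+) for 1 of the starts of Mmp12, chr9:7445672-7445821 (+) for Mmp3, chr9:7691940-7692089 (+) for 1 of the starts of Mmp7, chr7:139992563-139992712 (-) for Adam8 and chrX:20870016-20870165 (+) for Timp1.
Mmp13: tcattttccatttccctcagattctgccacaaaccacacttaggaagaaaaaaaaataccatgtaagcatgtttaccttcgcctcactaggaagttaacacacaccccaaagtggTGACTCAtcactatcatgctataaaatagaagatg
Mmp12: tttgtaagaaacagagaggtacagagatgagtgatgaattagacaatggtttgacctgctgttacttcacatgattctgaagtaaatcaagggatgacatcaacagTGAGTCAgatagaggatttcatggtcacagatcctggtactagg
Mmp3: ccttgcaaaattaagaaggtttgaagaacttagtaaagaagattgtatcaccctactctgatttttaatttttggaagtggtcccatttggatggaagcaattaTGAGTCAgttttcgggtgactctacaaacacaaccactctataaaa
Mmp7: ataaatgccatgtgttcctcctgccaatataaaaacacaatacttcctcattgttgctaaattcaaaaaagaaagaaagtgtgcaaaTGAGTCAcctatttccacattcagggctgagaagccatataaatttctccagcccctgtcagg
Adam8: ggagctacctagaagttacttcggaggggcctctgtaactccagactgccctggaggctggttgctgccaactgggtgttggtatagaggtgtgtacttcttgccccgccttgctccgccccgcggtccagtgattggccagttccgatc
Timp1: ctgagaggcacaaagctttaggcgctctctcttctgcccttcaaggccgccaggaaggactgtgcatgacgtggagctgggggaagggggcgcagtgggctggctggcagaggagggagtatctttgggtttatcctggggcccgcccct
The match began 35 bases before the start in Mmp13, 44 in Mmp12, 46 in Mmp3 and 63 in Mmp7, and the Adam8 and Timp1 stretches hold none. A match is a run of letters and was not tested for binding here.

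With the high-fat diet, 31 of the 52 tested members were higher than in control livers and none was lower at an adjusted p under 0.05 (edgeR's quasi-likelihood test, Benjamini-Hochberg over 13832 genes). Among the members called, the largest rises were those of Mmp12 (macrophage elastase), Adam8 (a sheddase of leukocytes), Timp1 (an inhibitor induced in fibrosis) and Mmp13 (the main interstitial collagenase of rodents). Over all genes tested, 16.3% were called higher and 9.89% lower. The median log2 fold change was 1.54 over the tested members and 0.06 over all genes. Control and HFD values did not overlap in 31 members, all higher in HFD, against 36.7% of all genes in either direction.

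The filter on low counts let 10 of the 52 in through the HFD libraries alone (Adam33, Adam8, Adamtsl5, Mmp13, Mmp24, Mmp25, Mmp3, Mmp7, Mmp8 and Timp1), and of the other 42, 24 were called higher. Scaled by library totals without the TMM step, 45 members were higher and none lower, while the median of all genes stood at 0.66 and their calls at 7041 higher and 154 lower, against 2257 and 1368 with TMM. DESeq2 called 35 members, adding Adam22, Adam32, Adamts9, Mmp7 and Mmp9 and leaving out Adamtsl5. With all 12 libraries, edgeR called 1 member, Mmp13, and 7 genes in all. Without control 1, 3 or 4 the count was 14, 16 or 15, and 13 members were called whichever single library was left out: Adam11, Adam15, Adam8, Adamts10, Adamts12, Adamts2, Adamts4, Adamtsl1, Mmp12, Mmp13, Mmp23, Timp1 and Timp2.

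**Figure D1:**
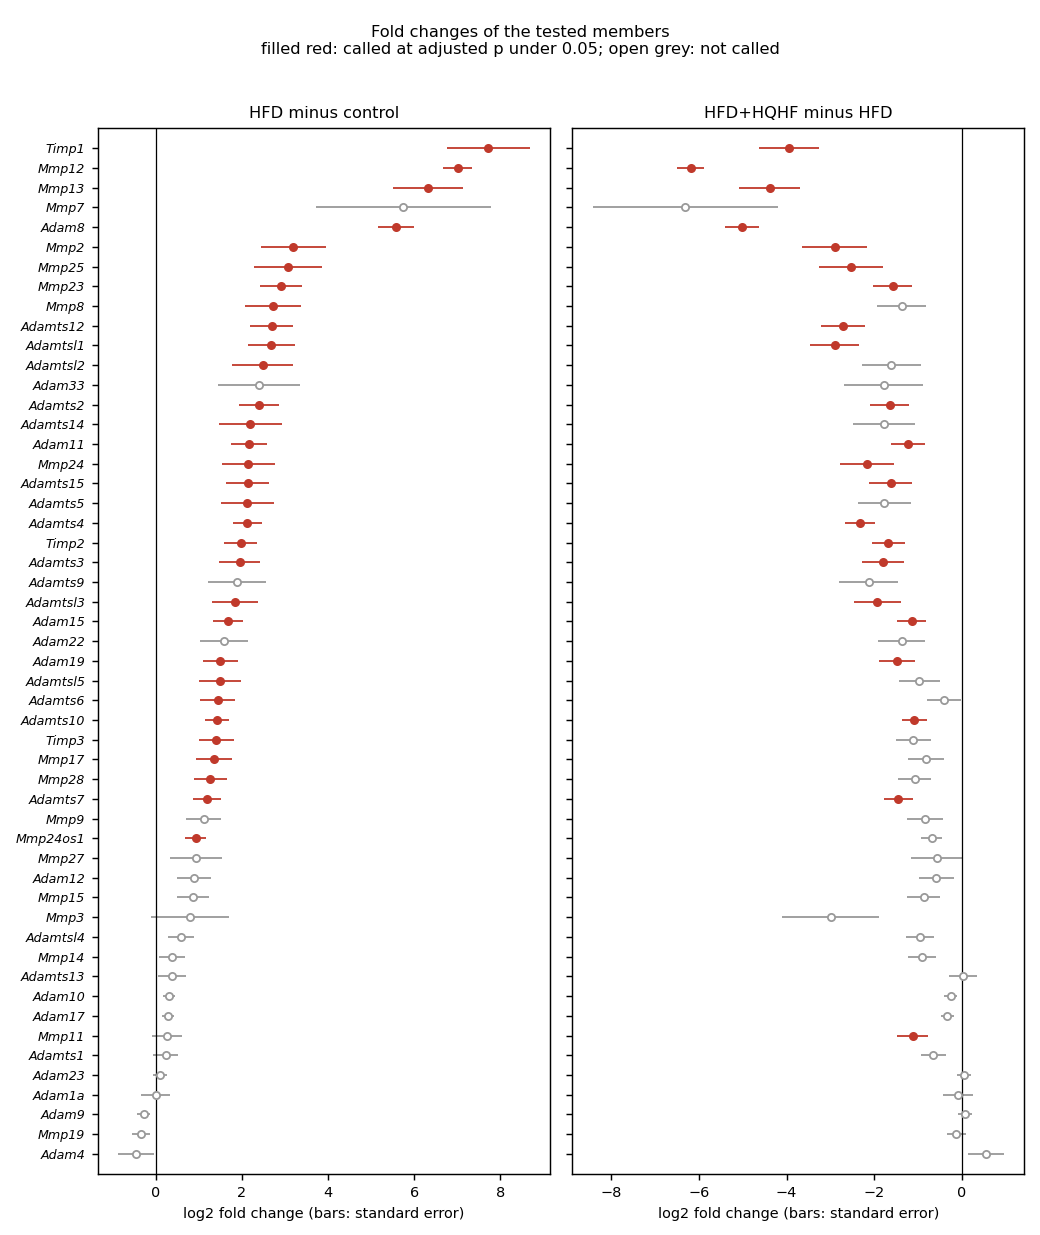
Log2 fold changes of the 52 tested members, HFD minus control on the left and HFD + HQHF minus HFD on the right, with bars for the standard error and genes in the same order in both panels. Filled red points passed an adjusted p of 0.05. On the left 31 red points lie right of 0, and on the right 22 lie left of 0. The HFD libraries enter both panels.

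Mmp12 encodes the elastase of macrophages and had the smallest p of the family. Its level was 0.315, 0.307 and 0.317 CPM in control 1, 3 and 4, then 59.1, 31.1, 35.7 and 36.8 CPM in HFD 1 to 4, and 0.402, 0.496 and 0.758 CPM in HFD + HQHF 1, 2 and 4. All 4 HFD livers stood far above the other 6, and the HFD + HQHF livers lay just above the controls without overlap. The log2 fold change of HFD over control was 7.01 ± 0.33 (SE), adjusted p = 4.22e-06 by edgeR. With all 12 libraries it was 5.35 with an adjusted p of 0.0834.

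Among the collagenases, which cut triple-helical collagen, both tested members rose. Both had passed the low-count filter through the HFD libraries alone, which favours a rise. Mmp13 had 0.0263, 0.0769 and 0.0317 CPM in the controls, 7.54, 3.66, 2.55 and 1.77 CPM in HFD 1 to 4, and 0.373, 0.104 and 0.0785 CPM in the HFD + HQHF livers. The groups did not overlap, HFD 1 was the highest, and the log2 fold change over control was 6.32 ± 0.81 with an edgeR adjusted p of 0.00178, from 5 reads in all controls and 845 in HFD. Mmp8, the collagenase stored in neutrophils, was low throughout, with 0.0317 to 0.0769 CPM in controls and 0.255 to 0.603 CPM in HFD livers. Its rise was 2.71 ± 0.65 (edgeR adjusted p = 0.0147), and its highest library, HFD 1, was also the one with the highest summed neutrophil markers, 63.6 CPM against 6.78 to 12.1 CPM in HFD 2 to 4. A part of neutrophils in that result was not tested.

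Of the gelatinases, which degrade denatured collagen and basement membrane, Mmp2 rose and Mmp9 was not called. Mmp2 comes from stromal cells and had 2.26, 1.36 and 2.28 CPM in the controls and 17.3, 11.2, 3.65 and 39.6 CPM in HFD 1 to 4, a spread of 10.9-fold that was the widest of the 31 members called. Its HFD + HQHF values were 1.18, 2.19 and 3.79 CPM, the last above HFD 3. The log2 fold change over control was 3.19 ± 0.76, adjusted p = 0.0172 by edgeR. Mmp9, made mainly by leukocytes, had 0.578, 0.564 and 1.14 CPM in controls against 2.47, 1.67, 1.10 and 1.31 CPM in HFD livers, with overlap and a log2 difference of 1.11 ± 0.41 (edgeR adjusted p = 0.0645).

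Matrilysin, Mmp7, an enzyme of duct and gland epithelium, had the widest split within the HFD group and is described here because of its values. HFD 4 had 42.0 CPM and HFD 1 15.8 CPM, while HFD 2 and 3 had 0.294 and 0.0588 CPM, no higher than the 0.0513 to 0.499 CPM of the controls. The difference from control was not called (log2 5.75 ± 2.03, edgeR adjusted p = 0.0655). The same 2 livers had the highest summed level of 6 cholangiocyte markers, 375 CPM in HFD 4 and 100 CPM in HFD 1, against 19.7 to 43.7 CPM in HFD 2 and 3 and 23.3 to 27.9 CPM in controls. Much of that sum is Spp1, which was not called itself. Its HFD mean was 95.2 CPM, with the highest liver at 301.8 CPM, against a mean of 134.8 CPM for the sum. No marker of that list was at 0 in all libraries of a group, 1 of its 6 was called higher in HFD, and the part of bile duct cells was not tested. In bulk liver, more cells of a type and more RNA per cell cannot be told apart, here and in every result that follows.

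The stromelysins, broad-range matrix enzymes, were not called with the diet. Mmp3 had 0.499, 0 and 0.286 CPM in controls and 0.157 to 0.974 CPM in HFD livers (log2 0.79 ± 0.91, edgeR adjusted p = 0.549). Mmp11 had 1.05 to 1.37 CPM in controls and 0.931 to 2.06 CPM in HFD livers (log2 0.25 ± 0.34, edgeR adjusted p = 0.613). Mmp10 had 3 reads in all and was not tested.

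Among membrane-type MMPs, anchored at the cell surface, 3 of 5 tested members rose, each with few reads. Mmp24 and Mmp25 had passed the low-count filter through the HFD libraries alone, which favours a rise. Mmp25, known from neutrophils, went from a mean of 0.0364 ± 0.0131 CPM (SD, n = 3) to 0.328 ± 0.174 CPM (SD, n = 4), Mmp24 from 0.107 ± 0.0452 to 0.491 ± 0.244 CPM, and Mmp17 from 0.481 ± 0.0393 to 1.23 ± 0.389 CPM. Mmp14, which activates pro-MMP2 and cuts collagen itself, was not called. It had 38.0, 51.4 and 43.0 CPM in controls and 47.2, 53.6, 39.8 and 88.5 CPM in HFD livers, with HFD 2 and HFD 4 above every control and HFD 1 and 3 among them (log2 0.38 ± 0.31, edgeR adjusted p = 0.388). Mmp15 had 17.2 to 21.8 CPM in controls and 13.1 to 57.1 CPM in HFD livers, with HFD 3 below every control (edgeR adjusted p = 0.11). Mmp24os1, whose locus overlaps Mmp24 in RefSeq, rose by 0.92 ± 0.24 on the log2 scale (edgeR adjusted p = 0.02). Strand use in the counting step is not stated, so the levels of this antisense RNA and of Mmp24 cannot be told apart with certainty.

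Of the remaining MMPs, Mmp23 and Mmp28 rose. Mmp23 lacks the usual hemopexin part and had 0.368, 0.359 and 0.349 CPM in controls and 2.79, 1.60, 1.73 and 4.68 CPM in HFD livers, a log2 fold change of 2.90 ± 0.48 (edgeR adjusted p = 0.00419). The Mmp23 locus overlaps Mib2, which was not called (log2 0.46, edgeR adjusted p = 0.251). Mmp19 had 66.5 to 75.1 CPM in controls and 41.7 to 74.4 CPM in HFD livers and was not called (log2 -0.34 ± 0.21, edgeR adjusted p = 0.242). Mmp28, an MMP of epithelium, had 0.333 to 0.444 CPM in controls and 0.809 to 1.24 CPM in HFD livers (log2 1.27 ± 0.38, edgeR adjusted p = 0.0339), and Mmp27 was not called (edgeR adjusted p = 0.276).

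**Figure D2:**
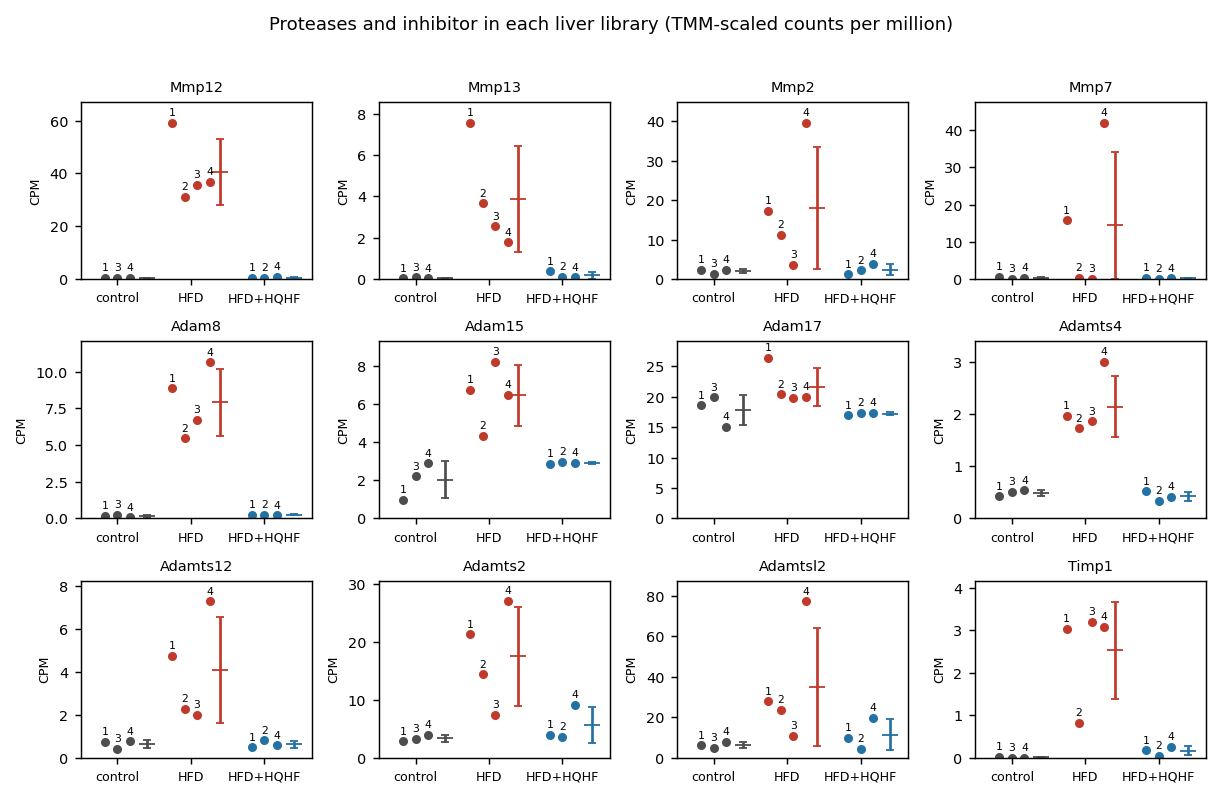
TMM-scaled CPM of 12 members in each library on linear axes from 0, with replicate numbers over the points and the mean ± SD of each group at its right (bars stop at 0). Mmp12, Adam8 and Adamts4 show 4 HFD points above all others, Mmp7 is high in HFD 1 and 4 alone, and Adam17 differs little between groups.

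Among ADAM sheddases with a working catalytic site, Adam8, Adam15 and Adam19 rose and 5 of the 8 tested were not called. Adam8 and Adam33 had passed the low-count filter through the HFD libraries alone. Adam8, a sheddase of myeloid cells, had 0.184, 0.231 and 0.0635 CPM in the controls, 8.86, 5.46, 6.72 and 10.6 CPM in HFD 1 to 4 and 0.258, 0.261 and 0.209 CPM in the HFD + HQHF livers. No HFD value came near the other groups, and the log2 fold change over control was 5.58 ± 0.41 (edgeR adjusted p = 0.000146). Adam15 had 0.972, 2.204 and 2.89 CPM in controls and 6.74, 4.30, 8.21 and 6.48 CPM in HFD livers, highest in HFD 3, with a log2 fold change of 1.67 ± 0.34 (edgeR adjusted p = 0.00852). Adam19, known to shed neuregulin, went from 1.34 ± 0.493 CPM (SD, n = 3) to 3.77 ± 1.16 CPM (SD, n = 4). Adam12 and Adam33, both known from mesenchymal cells, had 0.525 to 0.795 and 0.0317 to 0.128 CPM in controls and 0.621 to 1.70 and 0.11 to 1.24 CPM in HFD livers, each with overlap and HFD 4 highest (edgeR adjusted p = 0.124 and 0.0822).

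The best-known sheddases were not called with TMM scaling. Scaled by library totals, Adam10 and Adam17 were called higher in HFD, as were 7041 of all genes. Adam17, which releases TNF and its receptors, had 18.6, 19.9 and 15.0 CPM in controls and 26.4, 20.4, 19.8 and 20.0 CPM in HFD livers (log2 0.28 ± 0.15, edgeR adjusted p = 0.18). Adam10, which cuts Notch receptors and cadherins, had 25.7 to 33.1 CPM in controls and 32.8 to 42.3 CPM in HFD livers (log2 0.31 ± 0.14, edgeR adjusted p = 0.117). Adam9 had 52.7 to 71.8 CPM in controls and 45.7 to 60.5 CPM in HFD livers (log2 -0.29 ± 0.15, edgeR adjusted p = 0.178). These are 3 of the members with the smallest standard errors, and in each of them the HFD and control values overlapped. The RefSeq locus of Adam17 overlaps Iah1, which was lower in HFD (log2 -0.80, edgeR adjusted p = 0.00994).

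Of the ADAMs that lack a catalytic site and act in cell adhesion, Adam11 rose, and edgeR called neither Adam22 nor Adam23. Adam22 had 0.205 to 0.4202 CPM in controls and 0.368 to 1.76 CPM in HFD livers (log2 1.58 ± 0.55, edgeR adjusted p = 0.0559), and it was called by DESeq2 and by edgeR without HFD 2. Adam11 had 1.37, 2.74 and 4.32 CPM in controls and 14.9, 15.0, 10.5 and 9.56 CPM in HFD livers, with HFD 1 and 2 alike at the top, and a log2 fold change of 2.16 ± 0.41 (edgeR adjusted p = 0.00666). Adam23 had 42.8 to 43.7 CPM in controls and 41.8 to 54.7 CPM in HFD livers (log2 0.09 ± 0.16, edgeR adjusted p = 0.711). Of the ADAMs known mainly from testis, Adam1a and Adam4 were tested and neither was called.

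The 3 ADAMTS enzymes that remove the N-terminal propeptide of collagens all passed the test as higher, Adamts14 narrowly. Adamts2, the main procollagen I N-proteinase, had 2.84, 3.25 and 3.97 CPM in controls, 21.3, 14.4, 7.39 and 27.1 CPM in HFD livers and 3.93, 3.65 and 9.18 CPM in HFD + HQHF livers. Every HFD liver exceeded every control, and HFD + HQHF 4 exceeded HFD 3. The log2 fold change over control was 2.39 ± 0.47 (edgeR adjusted p = 0.00796). Adamts3 rose by 1.94 ± 0.49 and Adamts14 by 2.19 ± 0.73 on the log2 scale, the latter with 5.73 CPM in HFD 4 against 0.941 to 1.52 CPM in the other HFD livers. The edgeR adjusted p of Adamts14 was 0.048. Its call was lost without the filter, with only the groups compared, with all 12 libraries and without any single library other than HFD 2 or HFD 3.

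Of the ADAMTS proteoglycanases, which cut versican and aggrecan, 3 of 5 tested rose. Adamts4 had 0.4202, 0.513 and 0.540 CPM in controls, 1.97, 1.73, 1.86 and 3.01 CPM in HFD livers and 0.517, 0.339 and 0.418 CPM in HFD + HQHF livers, a clean separation with a log2 fold change over control of 2.12 ± 0.34 (edgeR adjusted p = 0.0035). Adamts15 had 1.13 to 1.36 CPM in controls and 2.80 to 10.6 CPM in HFD livers (log2 2.13 ± 0.51, edgeR adjusted p = 0.015). Adamts5 had 2.28 to 3.08 CPM in controls and 28.7 CPM in HFD 4 against 4.39 to 7.74 CPM in the other HFD livers (log2 2.12 ± 0.61, edgeR adjusted p = 0.0318).

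The other proteoglycanases were not called. Adamts9 had 24.7 CPM in HFD 4, 3.14 to 5.59 CPM in HFD 1 to 3 and 2.36 to 2.85 CPM in controls, separated without a call (edgeR adjusted p = 0.0609). Adamts1, an early-response gene, had 23.1, 27.2 and 22.4 CPM in controls and 16.9, 25.6, 26.3 and 44.5 CPM in HFD livers (log2 0.22 ± 0.28, edgeR adjusted p = 0.587). Without HFD 4 its difference was -0.077. Adamts1 and Adamts5 are neighbours on chromosome 16.

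Adamts7 and Adamts12, which cut cartilage oligomeric matrix protein, both rose. Adamts12 had 0.735, 0.410 and 0.762 CPM in controls, 4.75, 2.28, 2.02 and 7.31 CPM in HFD livers and 0.488, 0.809 and 0.575 CPM in HFD + HQHF livers, with a log2 fold change over control of 2.69 ± 0.50 (edgeR adjusted p = 0.00618). Adamts7 had 2.97 to 5.25 CPM in controls and 5.14 to 12.4 CPM in HFD livers, overlapping through HFD 3 (log2 1.19 ± 0.33, edgeR adjusted p = 0.0254). Adamts10, which binds fibrillin, rose by 1.42 ± 0.28 and Adamts6, its close relative, by 1.44 ± 0.41 on the log2 scale. Adamts13, the von Willebrand factor protease made in stellate cells, had 3.02, 3.92 and 4.82 CPM in controls and 7.29, 6.20, 2.94 and 3.85 CPM in HFD livers and was not called (log2 0.37 ± 0.32, edgeR adjusted p = 0.418).

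ADAMTS-like proteins bind microfibrils and cut nothing, and 4 of the 5 passed the test, Adamtsl5 narrowly. Adamtsl5 had passed the low-count filter through the HFD libraries alone. Adamtsl1 had 0.972, 0.692 and 1.24 CPM in controls, 4, 3.07, 3.84 and 13.8 CPM in HFD livers and 0.632, 0.809 and 1.02 CPM in HFD + HQHF livers (log2 fold change over control 2.68 ± 0.55, edgeR adjusted p = 0.00869). Adamtsl2, known to bind fibrillin and a TGF-beta binding protein, had 6.17, 4.90 and 7.81 CPM in controls, 27.9, 23.8, 10.7 and 77.3 CPM in HFD livers and 9.91, 4.54 and 19.8 CPM in HFD + HQHF livers. HFD 3 lay only a little above the controls, and the log2 fold change was 2.48 ± 0.70 (edgeR adjusted p = 0.0314). Adamtsl3 rose by 1.83 ± 0.53 on the log2 scale, and Adamtsl4 was not called (edgeR adjusted p = 0.182). Adamtsl5 was at a log2 difference of 1.49 ± 0.49 (edgeR adjusted p = 0.0469), a call lost under DESeq2, without the filter, with the 1 CPM filter, with only the groups compared, with the replicate block, with all 12 libraries and without any single library.

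All 3 tested TIMPs rose, of which Timp1 had passed the low-count filter through the HFD libraries alone. Timp1 had 1 read in all 3 controls (0.0263 CPM in control 1 and 0 in control 3 and 4), 3.03, 0.827, 3.20 and 3.08 CPM in HFD 1 to 4 and 0.172, 0.0522 and 0.261 CPM in HFD + HQHF livers. From 553 reads in HFD the ratio to control was 275, with a 95% counting interval of 49.2 to 10900 that covers counting error only (edgeR adjusted p = 0.0015). HFD 2 was the lowest HFD liver, yet above every library of the other groups. The RefSeq locus of Timp1 overlaps Syn1, a neuronal gene that had 0.404 to 1.70 CPM in all 10 libraries and was not called (edgeR adjusted p = 0.836).

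Timp2, which also takes part in the activation of pro-MMP2 by MMP14, had 16.9, 12.5 and 12.1 CPM in controls, 40.0, 34.6, 39.9 and 101.9 CPM in HFD livers and 15.8, 13.5 and 21.2 CPM in HFD + HQHF livers (log2 fold change over control 1.97 ± 0.38, edgeR adjusted p = 0.00764). Timp3, which binds matrix and inhibits ADAM17, had 34.2, 34.8 and 23.0 CPM in controls and 43.6, 41.0, 111 and 127 CPM in HFD livers, split into a lower and a higher pair (log2 1.40 ± 0.41, edgeR adjusted p = 0.0318). Timp4, a TIMP of fat and heart, was not tested. Of its 54 HFD reads most lay in HFD 3, with 0.921 CPM against 0 to 0.0688 CPM in the other HFD livers, and HFD 3 also had 147 CPM of summed fat cell markers against 9.28 to 26.4 CPM elsewhere. The part of fat tissue in that library was not tested. The Timp4 locus overlaps Syn2, which stood at 2.78 CPM in the same library.

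**Figure D3:**
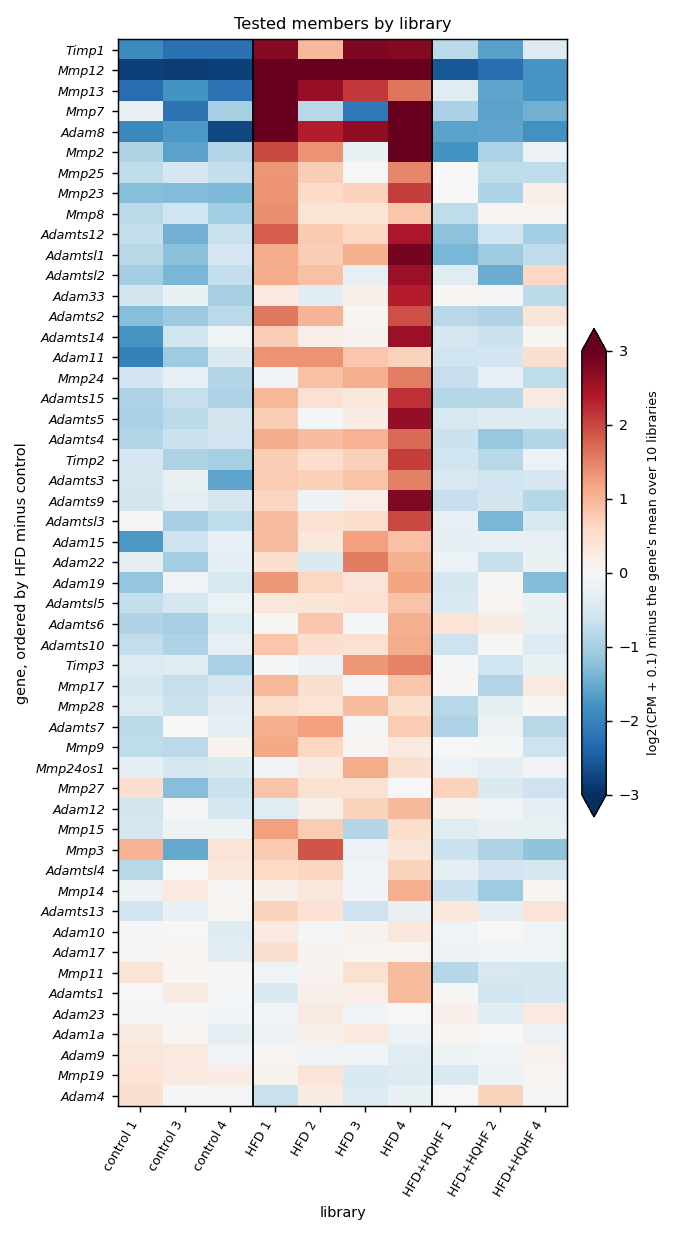
Log2(CPM + 0.1) of the 52 tested members minus each gene's mean over the 10 libraries, with genes in rows from the largest HFD minus control difference to the smallest and libraries in columns by group. Colours stop at 3 on either side. HFD 4 has the deepest red for most members called higher, Mmp7 is red in HFD 1 and 4, and the lowest rows, from Adam10 down, are pale in all libraries.

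The 4 HFD livers differed in how far the members rose. HFD 4 was the highest of the 4 in 20 of the 31 members called higher, HFD 1 in 5, HFD 3 in 4 and HFD 2 in 2. HFD 2 and HFD 3 were each the lowest in 13. The ratio of the highest to the lowest HFD liver ran from 1.53 (Mmp28) to 10.9 (Mmp2) with a median of 2.92. It was under 2 for Mmp12, Adam8, Adam11, Adam15, Adam19, Adamts3, Adamts4, Adamts10, Adamtsl5 and Mmp28, and over 5 for Mmp2, Adamtsl2, Adamts5 and Adamts14.

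Several lists of cell type markers also differed between the groups and between the HFD livers. All 8 markers of monocyte-derived macrophages were higher in HFD, summing to 442, 198, 290 and 442 CPM in HFD 1 to 4 against 57.7 to 84.0 CPM in controls and 59.3 to 91.3 CPM in HFD + HQHF livers. Of the 6 myofibroblast markers 5 were higher, with sums of 560, 218, 119 and 653 CPM in HFD 1 to 4 against 25.5 to 46.2 CPM in controls and 34.7 to 60.6 CPM in HFD + HQHF livers. HFD 4 and HFD 3 thus had the highest and the lowest myofibroblast sum, as they had the highest and lowest Mmp2, Adamts2 and Adamtsl2, genes picked after their values were seen. Collagen RNA makes up most of that sum. Col3a1, Col1a2 and Col1a1 had HFD means of 178.5, 97.8 and 73.6 CPM, against 387.8 CPM for the sum. Other members had another order, with HFD 3 the highest for Adam15 and Timp1. Neutrophil markers rose in 5 of 7 tested, stellate cell markers in 5 of 9 and mesothelial markers in 2 of 4, while 4 of 8 Kupffer cell and 4 of 8 hepatocyte markers fell. Endothelial markers had no call (0 of 8). The part of cell composition in the members' changes was not tested.

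**Figure D4:**
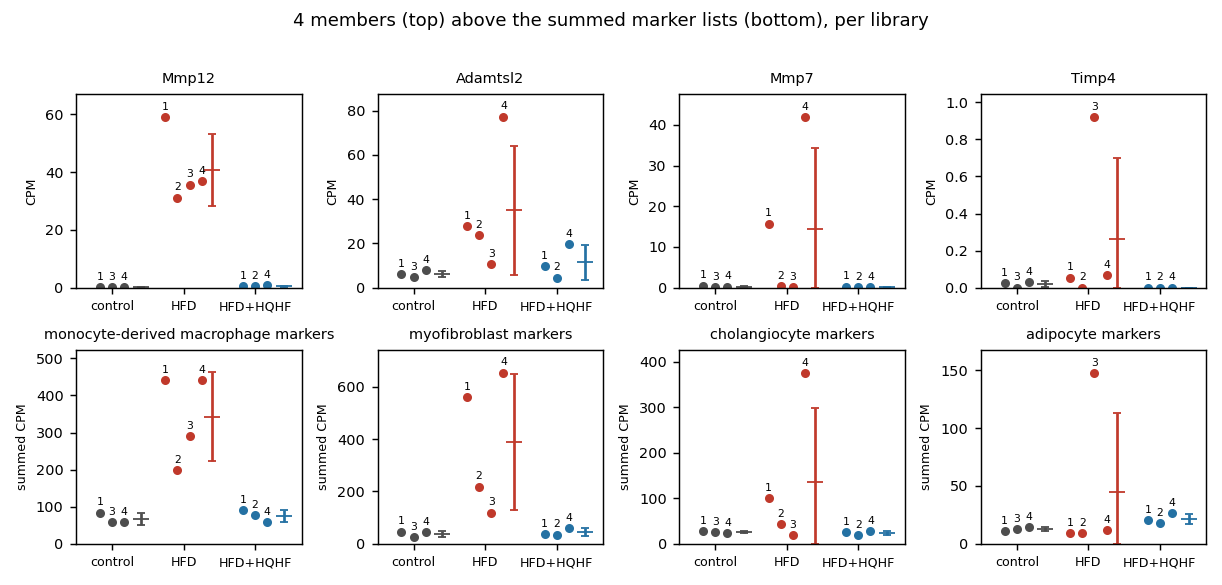
TMM-scaled CPM of Mmp12, Adamtsl2, Mmp7 and Timp4 in each library (top) above the summed CPM of the monocyte-derived macrophage, myofibroblast, cholangiocyte and adipocyte markers (bottom), on linear axes with the mean ± SD at the right of each group (bars stop at 0). HFD 1 and 4 are highest for both Mmp7 and the cholangiocyte markers, and HFD 3 for both Timp4 and the adipocyte markers. Spp1 makes up much of the cholangiocyte sum in HFD livers, and collagen genes much of the myofibroblast sum.

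Members were also looked at by protein domain and by place in the genome. By the authors' Pfam annotation, an M10 peptidase domain was in 20 members, a hemopexin domain in 17, a reprolysin domain in 39, a disintegrin domain in 20 and a thrombospondin type 1 repeat in 24. Among tested carriers, 9 of 17 with the M10 domain, 14 of 26 with reprolysin, 4 of 13 with a disintegrin domain and 14 of 18 with the thrombospondin repeat were higher in HFD. Over all genes 16.3% were called higher. These domains restate the symbol families, and so do the counts. The disintegrin carriers are the 20 ADAM genes, and reprolysin is in those and the 19 ADAMTS genes. The thrombospondin repeat is in the 19 ADAMTS and 5 ADAMTSL genes, and the tested M10 carriers are the 17 tested MMPs. In RefSeq on GRCm38.p6, 10 MMP genes follow each other on chromosome 9, of which 7 are in the table. Of these, Mmp13, Mmp12 and Mmp8 rose, Mmp3, Mmp27 and Mmp7 were not called and Mmp10 was not tested, so that neighbours in this row differed in call. The AP-1 motif printed above was in the promoters of Mmp13 and Mmp12, which rose, and of Mmp3 and Mmp7, which were not called. The other RefSeq start of Mmp12 and of Mmp7 had no AP-1 match in its 150 bases, and the Mmp8 promoter, of a gene that rose, had none in the 250 bases searched.

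Genes that activate, inhibit or are cut by these proteases were counted from lists. Of 12 tested activators, 3 rose and 2 fell with the diet. Those that rose belong to the plasminogen activator system, which can start MMP activation: Plaur, the urokinase receptor, went from 0.331 ± 0.146 CPM (SD, n = 3) to 2.97 ± 0.703 CPM (SD, n = 4), Plau from 1.51 ± 0.0898 to 8.48 ± 3.44 CPM and Plat from 0.473 ± 0.299 to 8.83 ± 7.76 CPM. Klkb1, plasma prekallikrein made in hepatocytes, fell by 0.89 ± 0.23 on the log2 scale. Of other related genes, Spock2 rose by 3.67 ± 1.18 and the inhibitor Tfpi2 fell by 0.79 ± 0.20 on the log2 scale. Spock2 ran from 0.822 to 15.35 CPM over the HFD livers, with a mean of 4.57 ± 7.19 CPM (SD, n = 4) that rests largely on the highest library.

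Among 9 tested genes of a list of ADAM10 and ADAM17 partners, 4 rose and 1 fell. The list also holds an ADAM-like gene that is not such a partner and was not called. Tspan33, a tetraspanin that steers ADAM10, fell from 12.9 ± 0.735 CPM (SD, n = 3) to 4.58 ± 0.612 CPM (SD, n = 4), a log2 change of -1.49 ± 0.15 (edgeR adjusted p = 0.000646). The iRhom genes Rhbdf1 and Rhbdf2 and their partner Frmd8, needed for ADAM17 to mature and reach the surface, rose by 1.58 ± 0.31, 1.47 ± 0.40 and 0.96 ± 0.20 on the log2 scale. Of 22 shed substrates 8 rose and 1 fell. Trem2, a macrophage receptor that is also in the macrophage marker list, rose by 5.26 ± 0.47, the chemokine Cx3cl1 by 3.64 ± 0.59 and the EGF receptor ligand Btc by 2.13 ± 0.41, while Met, the receptor of hepatocyte growth factor, fell by 0.69 ± 0.13.

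Of 17 tested matrix proteins that these enzymes cut, 14 rose and none fell. Lum, a small collagen-binding proteoglycan, rose by 2.54 ± 0.46, and the fibrillar collagen genes Col3a1, Col1a2 and Col1a1 by 3.37 ± 0.60, 3.44 ± 0.65 and 4.61 ± 0.91 on the log2 scale. The 3 collagen genes are also in the myofibroblast list. Against the 16.3% of all genes called higher, the counts are descriptions of lists chosen with results of these data known.

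HFD + HQHF livers were compared with HFD livers to see which members differed after the formula was given on the same diet. Of the 52 tested members 22 were lower and none was higher, led by Mmp12, Adam8, Adamts4, Mmp13 and Timp1. Of all genes, 11.1% were called lower and 7.85% higher, and 30.7% did not overlap between the groups in either direction, against 31 of the 52 members, all lower. The median log2 difference was -1.38 over the members and -0.07 over all genes. Of the 42 members that passed the filter without the HFD libraries, 17 were lower.

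Scaled by library totals alone, 45 members were lower and none higher, with 137 genes higher and 6496 lower in all, against 1086 and 1532 with TMM. DESeq2 called 32 members, adding Adamts5, Adamts8, Adamts9, Adamtsl2, Adamtsl4, Mmp14, Mmp3, Mmp7, Timp3 and Timp4. With all 12 libraries edgeR called no member, and 1 gene in all. Without HFD + HQHF 1, 2 or 4 the count of members was 6, 10 or 13, and without HFD 1 or HFD 4 it was 14 or 11. Adam8, Adamts12, Adamts4, Mmp12, Mmp13 and Timp1 were called whichever library was left out.

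Of the 17 MMPs tested, 7 were lower. Mmp12 had a log2 difference of -6.19 ± 0.31 (edgeR adjusted p = 8.2e-06), at 0.552 ± 0.185 CPM (SD, n = 3) against 40.7 ± 12.5 CPM (SD, n = 4) in HFD. Mmp13 was lower, at a log2 difference of -4.39 ± 0.69 (edgeR adjusted p = 0.00503) and did not overlap with HFD. Mmp2 was lower, at a log2 difference of -2.91 ± 0.75 (edgeR adjusted p = 0.0286), though HFD + HQHF 4 lay above HFD 3. Mmp23, Mmp24 and Mmp25 were also lower, with log2 differences of -1.58 ± 0.44, -2.17 ± 0.61 and -2.53 ± 0.74.

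Mmp11, an MMP of stromal cells, was lower in HFD + HQHF than in HFD livers, with 0.517, 0.704 and 0.680 CPM against 0.931 to 2.06 CPM (log2 -1.13 ± 0.35, edgeR adjusted p = 0.0477). That call was lost with RLE scaling, without the filter, with only the groups compared, with the replicate block and without any single library other than HFD 1 or HFD 2, and with all 12 libraries the difference was 0.20. It had not been called between HFD and control, whose values were 1.05 to 1.37 CPM. Mmp14 was at 26.9, 20.2 and 44.5 CPM in HFD + HQHF livers and was not called (edgeR adjusted p = 0.0644), nor was Mmp7 (edgeR adjusted p = 0.0663), whose 0.130 to 0.258 CPM lay between the values of HFD 3 and HFD 2. Mmp9 (edgeR adjusted p = 0.153) and Mmp8 (edgeR adjusted p = 0.106) did not overlap with HFD and were not called.

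Among ADAMs, 4 of 13 were lower. Adam8 was lower, at a log2 difference of -5.01 ± 0.39 (edgeR adjusted p = 0.000411), and Adam15, Adam19 and Adam11 at -1.15 ± 0.33, -1.49 ± 0.41 and -1.24 ± 0.39. Adam17 was at 17.0, 17.3 and 17.4 CPM, below all HFD livers by a small margin and without a call (log2 -0.33 ± 0.15, edgeR adjusted p = 0.131). Adam10 had 30.6 to 33.3 CPM and was not called (log2 -0.26 ± 0.14, edgeR adjusted p = 0.199). For these 2 sheddases the SE sets the size of difference that could be seen. Scaled by library totals, both were called lower, as were 6496 of all genes.

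Of the 13 ADAMTS tested, 7 were lower. Adamts4 was lower, at a log2 difference of -2.33 ± 0.34 (edgeR adjusted p = 0.00388), Adamts12 at -2.71 ± 0.50 (edgeR adjusted p = 0.00837) and Adamts7 at -1.45 ± 0.33. The collagen propeptidases Adamts2 and Adamts3 were lower, at -1.65 ± 0.45 and -1.80 ± 0.48, while Adamts14 was not called (edgeR adjusted p = 0.099). Adamts10 and Adamts15 were lower too. Adamts5, at 3.22 to 3.47 CPM, and Adamts9, at 1.91 to 2.37 CPM, lay below every HFD liver without a call (edgeR adjusted p = 0.0634 and 0.0521). Adamts13 had 5.69, 3.76 and 5.96 CPM, inside the range of the HFD livers (log2 0.02 ± 0.32).

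Adamtsl1 (log2 -2.91 ± 0.55, edgeR adjusted p = 0.00967) and Adamtsl3 (log2 -1.93 ± 0.54) were lower among the ADAMTS-like genes. Adamtsl2 was not called (edgeR adjusted p = 0.117), and HFD + HQHF 4, at 19.8 CPM, lay above HFD 3, at 10.7 CPM. Timp1 was lower, at a log2 difference of -3.95 ± 0.67 (edgeR adjusted p = 0.0065) and Timp2 at -1.68 ± 0.38 (edgeR adjusted p = 0.0164). Timp3 had 43.0, 30.0 and 39.6 CPM, overlapping with the lower pair of HFD livers, and was not called (edgeR adjusted p = 0.0767).

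All 8 macrophage and all 6 myofibroblast markers were lower in HFD + HQHF than in HFD livers, and 4 of 9 stellate cell and 3 of 4 mesothelial markers were lower too. Higher were 4 of 8 Kupffer cell and 2 of 8 hepatocyte markers. None of the 7 tested neutrophil markers was called, and 1 of 6 cholangiocyte markers was lower. Their part in the members' differences was not tested. Among the related genes, 3 activators (Plaur, Plau and Plat) were lower and Hpn was higher, and Spock2 was lower. Of the partners of ADAM10 and ADAM17, 3 were lower and Tspan33 was higher. Lower were also 5 shed substrates, with 2 higher, and 12 of 17 matrix proteins. Col1a1 was at 3.98 ± 3.55 CPM (SD, n = 3) against 73.6 ± 58.1 CPM (SD, n = 4) in HFD.

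HFD + HQHF livers were last compared with control livers, which asks whether the members still differed from those of mice on normal diet. No member was called in either direction, and no gene of the 13832 (0% higher and 0% lower) by edgeR at an adjusted p under 0.05. At an unadjusted p under 0.05 there were 5 members higher and 1 lower, and 512 and 496 genes, while DESeq2 called 70 genes and 0 members. The median log2 difference was 0.25 over the members and 0.02 over all genes. Of the 52, 8 did not overlap, against 15.1% of all genes. With all 12 libraries 0 members and 0 genes were called, and the difference turned to -0.91 for Timp1, -1.71 for Mmp23 and -0.29 for Mmp12.

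The smallest p values belonged to Timp1, with 18 reads against 1 (ratio 17.5, 95% counting interval 2.77 to 731, edgeR adjusted p = 0.601), and to Mmp23, at 1.03, 0.496 and 1.18 CPM against 0.349 to 0.368 CPM (log2 1.32 ± 0.49, edgeR adjusted p = 0.643). Adamts6 had 0.811 to 1.32 CPM against 0.436 to 0.698 CPM (log2 1.03 ± 0.43), and Mmp12 and Mmp13 were at differences of 0.82 ± 0.36 and 1.93 ± 0.91. Mmp11 and Mmp19 lay below the controls without overlap, at -0.87 ± 0.38 and -0.47 ± 0.22, and Adam11 was at 0.92 ± 0.42 with overlap. The counting interval of Timp1 leaves out the spread between libraries. A missed threshold with 3 libraries a group does not show that the levels were alike. For Mmp13 and Timp1, with 20 and 18 reads in the HFD + HQHF livers, the counts themselves limit the comparison.

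The 16 untested members were led by Adamts16 with 68 reads, Timp4 with 56, Adamts8 with 40, Adam32 with 33 and Mmp16 with 29. Adamts16 had 61 reads in HFD against 2 in control livers (ratio 15.2, 95% counting interval 4.02 to 128), and 0.946 CPM in HFD 4 against 0 to 0.0552 CPM in the other HFD livers. Of those 61 reads, 55 lay in HFD 4. This interval and the next pool the reads of a group and cover counting error only, not the spread between libraries. Adamts8, a neighbour of Adamts15 on chromosome 9, had 38 reads in HFD, most in HFD 1 at 0.493 CPM, and 2 in control (ratio 9.45, interval 2.44 to 80.9). Adam32 had 28 reads in HFD and none in control, at least 4.64-fold higher against a floor of 3 reads over the control group. Adam3 and Adam6b had no read in any of the 10 libraries.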

How the data were processed

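The long RNA libraries of mouse liver were made with a stranded total RNA kit after removal of ribosomal RNA, per the labels' protocols. The deposited values are raw counts per gene, made by the authors with no normalization, and the submitters' processing notes name HISAT2, RSEM and the build GRCm39 without versions or roles. Every value was a whole number from 0, no library was a copy of another, and 0 columns stayed without a sample. The 12 small RNA libraries were not analysed here, and the libraries used are of bulk tissue, not of single cells. Entries without a symbol numbered 116.

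Counts of 10 libraries (36198931 to 46454404 each) were fitted in R 4.3.3 with edgeR 4.0.16 (filterByExpr by group, TMM factors of 0.763 to 1.42, robust glmQLFit, glmQLFTest) with the means of 3 groups. Calls needed an adjusted p (Benjamini-Hochberg, 13832 genes) under 0.05. CPM in the text are TMM-scaled unless library totals are named, and a SE is the log2 fold change over the square root of F. Each library has its own batch code, so no batch term could be fitted. On simulated counts for HFD against control over 13630 genes, 34% of genes changed 2-fold and 77% of those changed 4-fold were called, with 7 false among 118 calls. Only 100 genes were changed at each fold, as many up as down. In the data 3625 genes were called, so these rates need not hold there. Levels were not compared between genes, since no gene length was at hand.

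The members, the lists, the libraries left out and the tests were chosen with earlier results of these data known. Given with values were the 24 tested members with the smallest p in HFD against control, the 8 with the smallest p in each other comparison and Mmp2, Mmp8, Mmp9, Mmp12, Mmp13, Mmp14, Adam8, Adam10, Adam17, Adamts1, Adamts2, Adamts13 and the TIMPs. Untested members with the most reads, at most 5, and at most 4 genes of each list of related genes were also named, and other genes given with values, among them Mmp7, Adamts9, Adamtsl2 and overlapping neighbours, were chosen after their values were seen. Some related genes are not reported here. All 68 IDs were in the reference list of gene names, 67 with the same symbol. Promoters, neighbours and overlaps are from RefSeq on GRCm38.p6. Alternatives were DESeq2 1.42.0, RLE scaling, library totals, no filter, at least 1 CPM in at least 3 libraries, all 12 libraries, only the groups compared, a replicate block, an adjusted p under 0.1 and each library left out. Leaving out control 1 and HFD 3 together was added after the data were seen.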

Additional observations from a re-analysis of the deposited data

Results flagged for a closer look

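Within the 4 HFD livers, 6 of the 34 members examined had 1 library far from the other 3 by Dixon's test. That test divides the gap to the nearest value by the range. Its nominal rate of about 1 in 20 assumes normal values and independent genes. CPM of members from the same 4 livers need not meet this, so no excess over chance can be read from the 6. Timp1 was low in HFD 2 at 0.827 CPM, with the next value at 3.03 CPM. HFD 4 stood out for Timp2 at 101.9 CPM (next 40.0 CPM), for Adamtsl1 at 13.8 CPM (next 4 CPM) and for Adamts3 at 1.56 CPM (next 0.961 CPM). Timp4 was high in HFD 3 at 0.921 CPM (next 0.0688 CPM), and Adam17 in HFD 1 at 26.4 CPM (next 20.4 CPM).

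The 2 libraries left out carried several members above the highest of the 3 controls used, on library totals. Only Mmp12, Mmp13, Adam8 and the TIMPs were looked at for this. Other members differed too: Adamts5 and Adamts12 were also above these controls in both libraries, and Adamts13 and Adamtsl2 below them. In control 2, Mmp12 stood at 4.79 CPM, against at most 0.274 CPM. Control 2 had 4.70 CPM and HFD + HQHF 3 had 18.7 CPM of Adam8, against at most 0.206 CPM. Timp1 was at 5.93 and 2.18 CPM in these libraries, against at most 0.0226 CPM. Timp2 was at 306.8 CPM in control 2, against at most 14.6 CPM, and Timp4, the TIMP known from fat, reached 183 CPM in the first and 82.8 CPM in the second, against at most 0.0242 CPM.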

How the results depend on the processing

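For HFD against control, members called numbered 31, and 26 to 36 under DESeq2 (35), RLE scaling, no filter, the 1 CPM filter, only the groups compared, the replicate block (26) and an adjusted p under 0.1. They numbered 45 with library totals, 21 without control 1 and HFD 3, 1 with all 12 libraries and 14 to 32 with single libraries left out. Calls over all genes, 3625 as reported, were 7195 with library totals, 7 with all 12 libraries, 2369 without control 1 and HFD 3 and 1568 to 3882 with single libraries left out. For HFD + HQHF against HFD, 22 members became 45 with library totals, 0 with all 12 libraries, 32 with DESeq2, 19 with the replicate block and 6 to 26 with single libraries left out. The 2618 genes called there became 6633 with library totals, 1 with all 12 libraries, 1719 with the replicate block, 4210 at an adjusted p under 0.1 and 633 to 3301 with single libraries left out. For HFD + HQHF against control, 0 genes became 70 with DESeq2 and 1 with only the 2 groups compared. The cause of these moves was not tested, other than that fewer libraries enter some fits.

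With all 12 libraries, log2 differences between HFD and control changed sign for Adamts4 (-1.32), Mmp23 (-0.42), Adamts12 (-1.83), Timp2 (-0.10), Adam15 (-1.46), Adamtsl3 (-0.84), Mmp9 (-1.26), Adamts1 (-0.71) and Adam10 (-0.19), and without HFD 4 for Adamts1, where leaving out single HFD libraries gave -0.077 to 0.41. Those between HFD + HQHF and HFD changed sign for Adamts12 (0.27), Mmp9 (0.20), Adamtsl3 (0.72), Adam15 (0.65) and Mmp11 (0.20), and those between HFD + HQHF and control for Timp1 (-0.91), Mmp23 (-1.71) and Mmp12 (-0.29). Adamts13, near 0 between HFD + HQHF and HFD, was at -0.52 with library totals, -0.010 with the 1 CPM filter, -0.34 with all 12 libraries, -0.065 with the replicate block, -0.17 without control 1 and HFD 3, and -0.17 to 0.24 with single libraries left out (below 0 without HFD 3, HFD 4, HFD + HQHF 1 or HFD + HQHF 4). Over all alternatives and named members, HFD against control gave 496 values with direction and side of the threshold kept, 66 no longer called, 8 newly called and 10 of opposite sign. HFD + HQHF against HFD gave 416, 116, 15 and 14, and HFD + HQHF against control 147 kept and 3 of opposite sign.

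Replicate numbers were not used as pairs in the main fit. Same-numbered libraries correlated at -0.05 to 0.12 in their deviations from the group means, 1 of 8 pairs above 0.1. Of the 10 libraries, 4 correlated best with their own number. With 8 pairs this check cannot exclude a pairing. Members with few reads, such as Timp1 with 1 read in control, are limited by depth.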
